A study of Mus musculus with 6 samples.

Results

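The 10 genes described here encode parts of the channel that brings new proteins into the endoplasmic reticulum (ER) and of the machinery that takes misfolded proteins out again. They were taken by symbol from the deposited expression table: Sec61a1, Sec61b, Sec61g, Herpud1, Sel1l, Syvn1, Derl1, Derl2, Selenos and Edem1. All 10 were found, each in 1 row, and all 10 passed the filter on low counts, among 12135 genes tested of 21899 listed. The cells were C2C12, a mouse myoblast line with a wild type genotype in the labels, which call the cells myocytes. The study compared 3 control libraries, from cells that received phosphate-buffered saline (PBS), with 3 from cells kept in 5-fluorouracil (5-FU), a pyrimidine analogue, at 5 µg per L for 24 hours. No time is given for the PBS libraries, and for replicates 2 and 3 of 5-FU the cell line is labelled with other final digits than in the titles, which were followed here. Whether the replicates came from separate cultures is not stated in the labels, so the spread behind each p-value may be technical.

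Secretory and membrane proteins enter the ER through the SEC61 channel, a complex of an alpha, a beta and a gamma subunit. Proteins that fail to fold there are recognised by lectins such as EDEM1, passed through the membrane by a complex built around the ubiquitin ligase HRD1 (encoded by Syvn1) and its partner SEL1L, pulled out by the ATPase VCP and degraded by the proteasome. This route is called ER-associated degradation. When misfolded proteins build up, the unfolded protein response raises many of these genes through the factors XBP1 and ATF6, which act on ER stress response elements in promoters, while the kinase PERK raises ATF4. Muscle cells use the same route and also depend on the ER, as sarcoplasmic reticulum, to store calcium.

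The promoters of 3 genes of this system and that of the chaperone gene Hspa5 are shown because they differ in which of the elements searched they hold. Each runs from 250 bases before to 50 bases after the RefSeq start site, in the direction of the gene, on build GRCm38.p6. Capitals mark the ER stress response element (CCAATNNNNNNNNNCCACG), its second form (ATTGGNCCACG) and the amino acid response element bound by ATF4 (TGATGNAA). All were searched on both strands, together with the unfolded protein response element TGACGTGG.
Herpud1 (chr8:94386179-94386478, plus strand): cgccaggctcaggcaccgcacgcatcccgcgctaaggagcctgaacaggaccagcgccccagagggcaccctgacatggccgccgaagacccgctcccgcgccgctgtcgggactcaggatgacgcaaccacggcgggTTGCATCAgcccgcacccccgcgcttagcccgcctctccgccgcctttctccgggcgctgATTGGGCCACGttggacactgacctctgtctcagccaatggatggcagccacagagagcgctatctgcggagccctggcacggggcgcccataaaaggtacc
Syvn1 (chr19:6046326-6046625, plus strand): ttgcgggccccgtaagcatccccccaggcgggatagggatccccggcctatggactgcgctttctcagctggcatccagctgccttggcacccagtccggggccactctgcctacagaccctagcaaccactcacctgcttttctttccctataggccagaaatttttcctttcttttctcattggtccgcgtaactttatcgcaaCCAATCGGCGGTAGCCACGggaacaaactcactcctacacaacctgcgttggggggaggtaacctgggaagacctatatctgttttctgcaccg
Sec61b (chr4:47474411-47474710, plus strand): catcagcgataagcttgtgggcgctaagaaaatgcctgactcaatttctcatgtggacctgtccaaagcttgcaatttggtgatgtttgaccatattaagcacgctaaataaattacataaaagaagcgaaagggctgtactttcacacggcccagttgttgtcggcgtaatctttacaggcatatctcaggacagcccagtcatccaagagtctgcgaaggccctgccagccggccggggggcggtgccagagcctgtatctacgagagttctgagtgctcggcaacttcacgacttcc
Hspa5 (chr2:34771840-34772139, plus strand): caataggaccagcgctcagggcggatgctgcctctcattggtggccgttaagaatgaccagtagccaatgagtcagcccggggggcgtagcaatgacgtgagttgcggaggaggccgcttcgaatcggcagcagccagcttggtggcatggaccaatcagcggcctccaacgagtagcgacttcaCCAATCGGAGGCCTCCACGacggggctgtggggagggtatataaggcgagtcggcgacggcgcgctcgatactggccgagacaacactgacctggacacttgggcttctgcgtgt

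In the Herpud1 promoter, ATTGGGCCACG lies 52 to 42 bases before the start site, and TTGCATCA, an amino acid response element on the other strand, 112 to 105 bases before it. The Syvn1 promoter holds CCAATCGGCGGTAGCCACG 44 to 26 bases before the start, and that of Hspa5 holds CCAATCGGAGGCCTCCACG 65 to 47 bases before it. No match to these 4 motifs was found in the promoter windows of Sec61b, Sec61g, Sel1l, Derl2, Selenos and Edem1. The table matched 8 of the 10 genes by symbol, without Sec61a1 and Derl1. Of all 32851 RefSeq promoter windows, 0.119% held the first element, 0.0365% the second form, 0.676% the unfolded protein response element and 3.97% the amino acid response element. None of the 4 matches shown overlaps another. A match describes letters only and is no evidence of binding.

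In the 5-FU libraries 3 of the 10 genes fell: Sec61b, Sec61g and Herpud1. The beta and gamma subunits of the channel stood at 79.8% and 81.4% of their PBS level and Herpud1 at 87.7%. The other 7 were not called. No gene of the 10 rose by edgeR, DESeq2 or limma-voom. At an unadjusted edgeR p under 0.05, 5 of the 10 were lower and 1, Sel1l, higher, against 11.1% and 12.7% of all tested genes. edgeR's quasi-likelihood test on the rounded counts, with Benjamini-Hochberg adjustment over all tested genes, called 7.14% of genes (adjusted p under 0.05), 3.26% lower and 3.87% higher. The log2 fold change was negative for 9 of the 10 genes, with a median of -0.12, where the median of all tested genes was 0.0012 and 49.7% were negative. For 6 of the 10, all 3 PBS libraries lay above all 3 5-FU libraries, as in 14.2% of tested genes. Levels below are counts scaled to library size (CPM) with TMM factors. In bulk RNA, fewer cells that express a gene and less RNA per cell cannot be told apart.

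**Figure D1:**
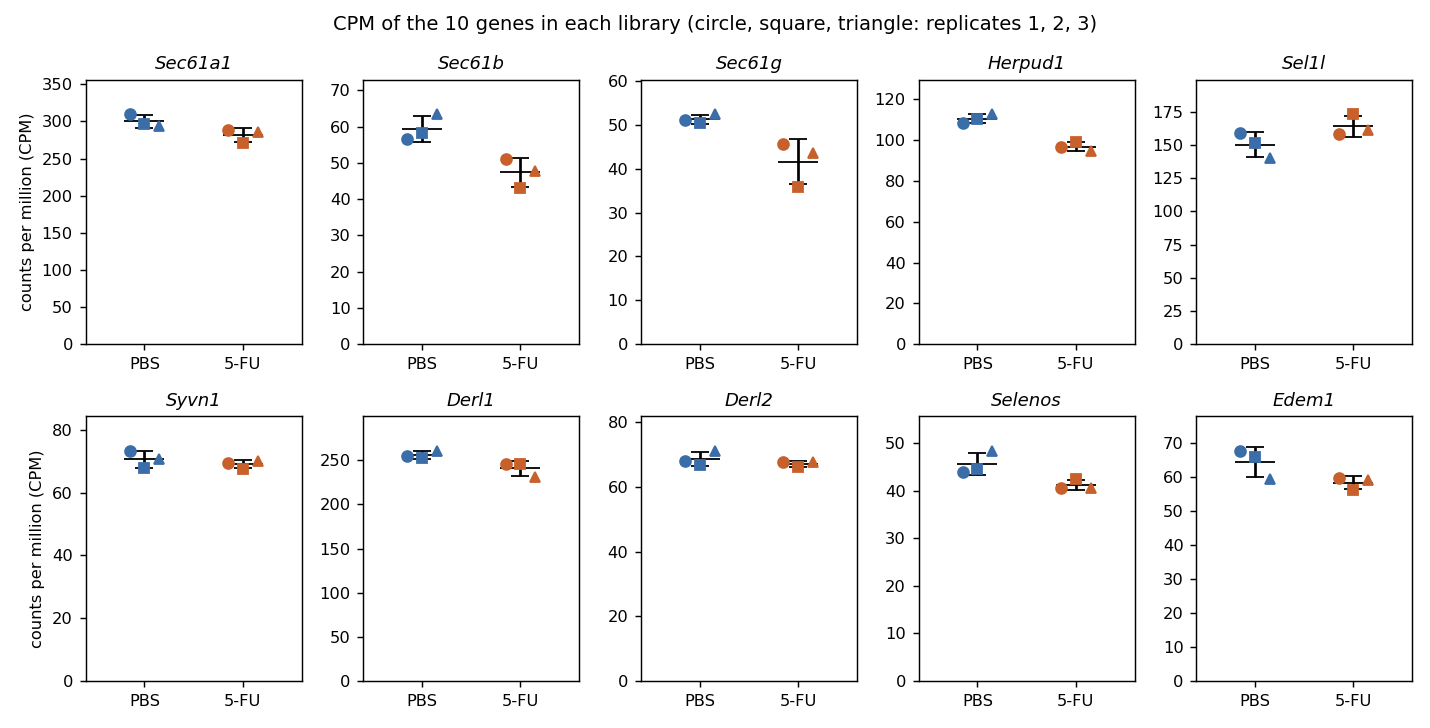
CPM of each of the 10 genes (vertical axes, from 0) in the 3 PBS (blue) and 3 5-FU (orange) libraries; circle, square and triangle are replicates 1, 2 and 3, and bars are the mean ± SD. Sec61b, Sec61g and Herpud1 lie lower in every 5-FU library, while Syvn1 and Derl2 overlap between the groups.

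Sec61b encodes the small beta subunit, a tail-anchored protein beside the pore. It measured 56.5, 58.2 and 63.4 CPM in PBS replicates 1 to 3 and 51.1, 43.05 and 47.9 CPM in the 5-FU replicates. The groups did not overlap, and 5-FU replicate 2 was the lowest of all 6 libraries. The mean went from 59.4 ± 3.6 to 47.3 ± 4.0 CPM (SD, n = 3), a log2 fold change of -0.32 (SE 0.069, edgeR adjusted p = 0.0198). The call was kept in 3 of the 6 refits that left out 1 library and ended without PBS replicate 2 (adjusted p = 0.0691), PBS replicate 3 (0.0658) and 5-FU replicate 2 (0.0511).

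Sec61g encodes the gamma subunit, a single-span protein that clamps the channel. It was nearly even in PBS, at 51.0, 50.3 and 52.4 CPM, and spread more widely in 5-FU, at 45.5, 35.9 and 43.5 CPM. Again no 5-FU library reached the PBS range, and replicate 2 was the lowest. The mean went from 51.3 ± 1.1 to 41.6 ± 5.1 CPM (n = 3; log2 fold change -0.30, SE 0.078, edgeR adjusted p = 0.0440). The call ended in 5 of the 6 refits and was kept without 5-FU replicate 1 (adjusted p = 0.0255). Without 5-FU replicate 2 the log2 fold change was -0.20 (adjusted p = 0.0776). With limma on log2(TPM + 1) it was -0.26 (adjusted p = 0.0734).

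Sec61a1 encodes the alpha subunit, which forms the pore. It measured 309.7, 296.5 and 293.8 CPM in PBS and 288.4, 270.8 and 286.3 CPM in 5-FU, so that the groups stood apart by a narrow gap. Its log2 fold change was -0.090 (95% interval -0.18 to 0.0048, edgeR adjusted p = 0.230) and it was not called. Its paralogue Sec61a2 stood at 26.2 CPM in both groups (log2 fold change -0.0011, 95% interval -0.15 to 0.15). Sec61a2 had counts that were not whole numbers in 6 of 6 libraries, as happens when reads are shared between genes.

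Levels of different genes were compared in TPM, the authors' abundance per transcript length. In PBS the beta subunit was the most abundant of the 10 genes, at 207 ± 8.8 TPM, above the alpha subunit at 186 ± 8.5 TPM, and their ranges did not overlap. In 5-FU the alpha subunit came first at 179 ± 4.6 TPM and the beta subunit followed at 169 ± 13 TPM, with overlapping ranges. The ratio of Sec61b to Sec61a1 TPM was 1.03, 1.11 and 1.21 in the PBS libraries and 0.996, 0.894 and 0.940 in the 5-FU libraries. For Sec61g over Sec61a1 it was 0.688, 0.721 and 0.748 against 0.659, 0.553 and 0.649. Both ratios were lower in each 5-FU library than in each PBS library. An exact two-sided permutation test gave p = 0.1 for both, the smallest that 3 libraries against 3 allow, and 0.15 after adjustment over the 6 ratios examined, a set chosen after the values were seen. Sec61b over Sec61g was 1.55 ± 0.066 in PBS and 1.53 ± 0.085 in 5-FU (n = 3, exact permutation p = 0.7). Derl2 over Derl1 was 0.556 ± 0.019 in PBS and 0.563 ± 0.039 in 5-FU (n = 3, exact permutation p = 0.9).

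**Figure D2:**
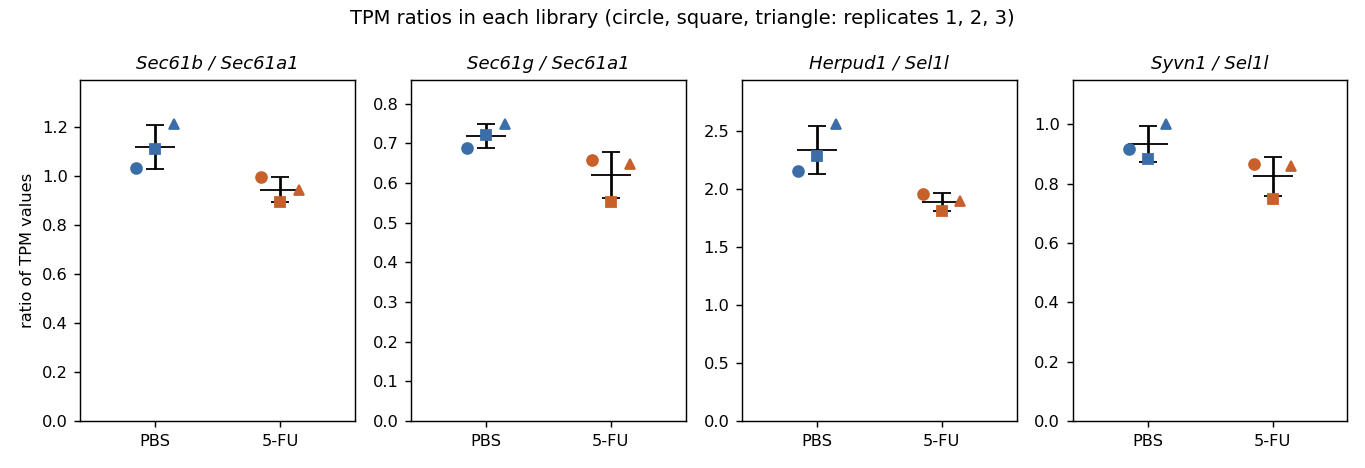
Ratios of TPM values (vertical axes, from 0) in each PBS (blue) and 5-FU (orange) library, with the mean ± SD; circle, square and triangle are replicates 1, 2 and 3. The beta and gamma subunits relative to the alpha subunit, and Herpud1 and Syvn1 relative to Sel1l, are lower in each 5-FU library than in any PBS library. The ratios of Sec61b to Sec61g and of Derl2 to Derl1, whose groups overlap, are not drawn.

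Sec61b has a longest GENCODE M21 transcript of 723 bases, the shortest of the 10 genes, against 3172 for Sec61a1. Among the 457 tested genes whose longest transcript is under 1000 bases, 25 (5.47%) fell and 1 (0.219%) rose, with a median log2 fold change of -0.069. For the 3030 tested genes with the shortest transcripts (up to 2266 bases), the median deviation from each gene's mean over libraries was taken (log2). It was -0.019, 0.015 and 0.057 in PBS replicates 1 to 3 and 0.023, -0.037 and -0.030 in 5-FU replicates 1 to 3. The groups overlapped, with 5-FU replicate 1 above PBS replicates 1 and 2. With offsets that remove each library's trend with length and GC content, Sec61b had a log2 fold change of -0.24 (edgeR adjusted p = 0.0150) and Sec61g of -0.24, no longer called (adjusted p = 0.0618). The offsets took the longest transcript of each gene, 1862 bases for Sec61g and 1191 for Selenos. In PBS, Sec61g had 133 TPM at 51.3 CPM and Selenos 75.3 TPM at 45.7 CPM. More TPM per CPM means a shorter length behind the TPM, so 1862 bases may be too long for Sec61g. Its length trend may then not be fully removed. The 6 markers of differentiated muscle cells (Myog, Ckm, Myh3, Tnnt3, Acta1 and Mymk) summed to 1790 CPM in 5-FU replicate 2, where Sec61b and Sec61g were lowest. They summed to 1130 to 1330 CPM in PBS and to 1270 and 1050 CPM in 5-FU replicates 1 and 3, so that replicate 3 had the lowest marker sum of all 6 libraries and both subunits below PBS. The part of these markers in the result was not tested.

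Herpud1 encodes a ubiquitin-like membrane protein, induced by ER stress, that organises the HRD1 complex. It measured 108.2, 110.5 and 112.7 CPM in PBS and 96.6, 99.1 and 94.8 CPM in 5-FU. Its 5-FU group was the tightest of the 3 called genes, and its groups stood clearly apart. The mean went from 110.5 ± 2.2 to 96.8 ± 2.2 CPM (n = 3; log2 fold change -0.19, SE 0.042, edgeR adjusted p = 0.0241). The call was kept without PBS replicate 1 and without 5-FU replicate 2, and ended in the other 4 refits (PBS replicates 2 or 3, or 5-FU replicates 1 or 3, left out), where adjusted p lay between 0.0553 and 0.104. With limma on log2(TPM + 1) the log2 fold change was -0.13 (adjusted p = 0.0962).

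Sel1l encodes the adaptor that holds HRD1 and feeds it substrates, and it was the gene of the 10 with a positive log2 fold change. It measured 158.9, 151.5 and 140.2 CPM in PBS and 158.2, 173.1 and 161.1 CPM in 5-FU, so that 5-FU replicate 1 lay inside the PBS range. The log2 fold change was 0.13 (95% interval 0.0071 to 0.25, edgeR adjusted p = 0.182) and was not called. Its unadjusted p was no longer under 0.05 in 4 of the 6 refits that left out 1 library, and without PBS replicate 3 the log2 fold change was 0.079 (adjusted p = 0.419). The ratio of Herpud1 to Sel1l TPM was 2.16, 2.29 and 2.56 in PBS and 1.96, 1.81 and 1.90 in 5-FU, with no overlap. The exact permutation p was 0.1, the smallest possible, and 0.15 after adjustment over the 6 ratios. Like the others, this pair was chosen after the values were seen, and it sets a gene called lower over the gene with a positive value.

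Syvn1, the gene of the ligase HRD1 itself, did not pass the test. It measured 73.35, 67.8 and 70.9 CPM in PBS and 69.6, 67.6 and 70.1 CPM in 5-FU (log2 fold change -0.031, 95% interval -0.14 to 0.074), and the groups overlapped. Its promoter holds the ER stress response element shown above. In PBS its TPM range overlapped that of Sel1l, at 45.4 ± 2.6 against 48.7 ± 4.0 TPM. In 5-FU the ranges were apart, at 44.9 ± 1.1 against 54.6 ± 3.3 TPM.

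The derlins are membrane proteins thought to form the exit path beside HRD1. Derl1 measured 254.6, 252.8 and 260.6 CPM in PBS and 245.3, 246.2 and 231.0 CPM in 5-FU. The groups did not overlap, but the log2 fold change of -0.088 (95% interval -0.18 to 0.0041, edgeR adjusted p = 0.228) was not called. Derl2 overlapped between groups, with 68.05, 66.8 and 71.1 CPM in PBS and 67.65, 66.0 and 67.6 CPM in 5-FU (log2 fold change -0.033, 95% interval -0.13 to 0.069). Its counts were not whole numbers in 5 of 6 libraries, and in GENCODE M21 its start overlaps Mis12 on the opposite strand, whose reads cannot be told apart without strand.

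Selenos encodes selenoprotein S, which recruits VCP to the complex. It measured 43.9, 44.7 and 48.4 CPM in PBS and 40.7, 42.5 and 40.55 CPM in 5-FU, without overlap. Its log2 fold change of -0.15 (95% interval -0.27 to -0.022) had an unadjusted p of 0.0250 and an edgeR adjusted p of 0.140. With the length and GC offsets it was -0.078 (adjusted p = 0.400). Edem1, whose product hands over glycoproteins with trimmed sugars, measured 67.5, 65.8 and 59.2 CPM in PBS and 59.6, 56.1 and 59.0 CPM in 5-FU. PBS replicate 3 lay inside the 5-FU range, and the log2 fold change of -0.14 (95% interval -0.27 to -0.013) had an edgeR adjusted p of 0.168. Edem1 was the least abundant of the 10 genes in both groups, at 21.6 ± 1.8 and 20.1 ± 0.49 TPM.

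**Figure D3:**
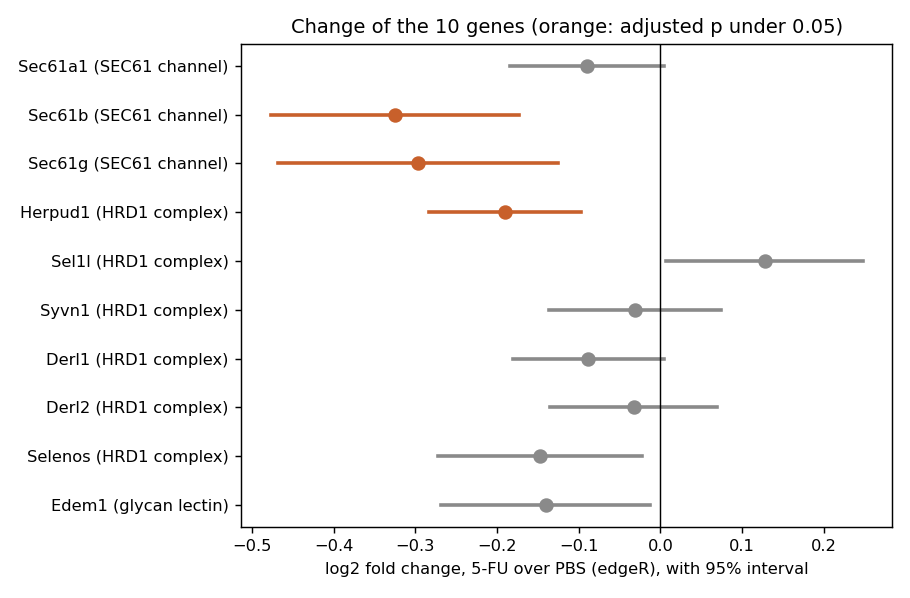
Log2 fold change of 5-FU over PBS (horizontal axis) with its 95% interval from the edgeR fit for each of the 10 genes, the 3 called genes in orange and the others in grey. The values run from -0.32 for Sec61b to 0.13 for Sel1l, and the intervals of Sec61a1, Syvn1, Derl1 and Derl2 include 0.

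Libraries of the same group differed little over the 10 genes. The median deviation from the group mean lay between -0.027 and 0.027 (log2). Of the 10 genes, 4, 3 and 7 lay above the group mean in PBS replicates 1, 2 and 3, and 7, 4 and 6 in 5-FU replicates 1, 2 and 3. The largest single deviation was that of Sec61g in 5-FU replicate 2 (-0.21). None of the 10 genes was called by edgeR without PBS replicate 2 or without PBS replicate 3, with 4 and 5 of them lower at an unadjusted p under 0.05. Leaving out 5-FU replicate 2 kept Herpud1 alone, and leaving out 5-FU replicate 3 kept Sec61b alone. With all 6 libraries, DESeq2 and limma-voom called the same 3 genes.

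**Figure D4:**
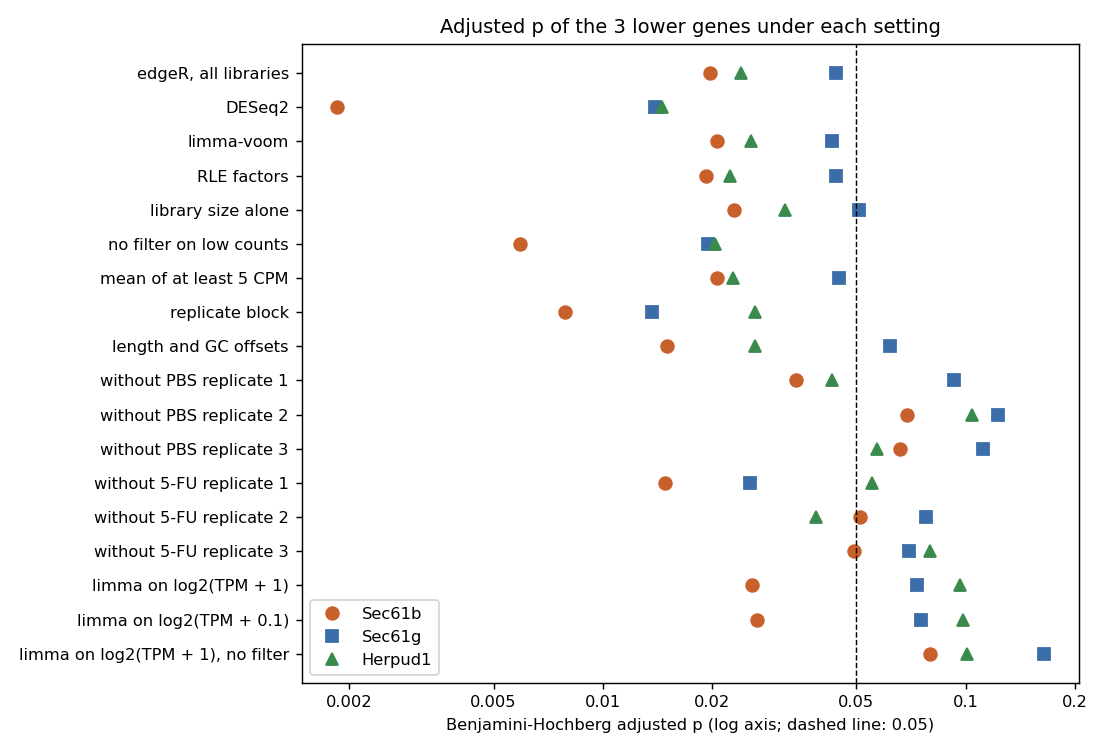
Benjamini-Hochberg adjusted p (horizontal log axis, dashed line at 0.05) of Sec61b, Sec61g and Herpud1 under each test, scaling and left-out library. Points left of the line were called: Sec61b ran from 0.00185 to 0.0800, Sec61g from 0.0137 to 0.164 and Herpud1 from 0.0146 to 0.104.

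Beyond these 10 genes, 107 tested genes of the same pathways were counted in 11 groups: 7 fell and 1 rose, with a median log2 fold change of -0.046. Calls made up 7.48% of these genes, near the 7.14% of all tested genes, and those that fell made up 6.54%, where 3.26% of all tested genes fell. Leaving out PBS replicate 1, 2 or 3 gave 4, 2 or 3 calls in place of these 8, and leaving out 5-FU replicate 2 or 3 gave 3 each time. These lists were drawn up with earlier results of these data known. Of the partners of the channel, 8 were tested, 6 with negative values (median log2 fold change -0.14). At an unadjusted edgeR p under 0.05, 5 of the 8 were lower and 1 was higher, against 11.1% and 12.7% of all tested genes. Ssr3, a subunit of the translocon-associated complex, fell from 440.6 ± 6.0 to 398.3 ± 8.1 CPM (log2 fold change -0.15, edgeR adjusted p = 0.0452), and Tram2, a channel partner used for collagen, rose from 33.7 ± 2.5 to 39.9 ± 1.8 CPM (0.24, adjusted p = 0.0498). Neither call was kept in any refit without 1 library. DESeq2 called Ssr1 and Ssr3 here. Of the signal peptidase, which trims signal sequences at the channel, 1 of 5 fell: Spcs3 went from 99.8 ± 2.6 to 87.6 ± 1.1 CPM (-0.19, adjusted p = 0.0257), a call kept in 2 of 6 refits.

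In the oligosaccharyltransferase, which attaches sugars to chains as they leave the channel, all 12 tested genes had negative values (median log2 fold change -0.12), from Tmem258 at -0.20 towards 0. edgeR and limma-voom called none, DESeq2 called Stt3a, and 6 of 12 had a lower value at an unadjusted p under 0.05, against 11.1% of all tested genes. Of 10 genes of the signal recognition particle and its receptor, which bring ribosomes to the channel, 8 were negative (median -0.097). None was called by edgeR, DESeq2 or limma-voom and 3 were lower at an unadjusted p under 0.05, the lowest p being that of Srp9 (-0.20, edgeR adjusted p = 0.0775). The separate insertion route for tail-anchored and other membrane proteins had 5 negative and 10 positive values among 15, with a median of 0.0059. None was called there by the 3 tools. At an unadjusted edgeR p under 0.05, 2 (13.3%) were lower and 0 higher, against 11.1% and 12.7% of all tested genes. Get4 gave the lowest p (-0.18, edgeR adjusted p = 0.0684).

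The other degradation genes gave no call by edgeR, DESeq2 or limma-voom. There were 8 further tested genes of the HRD1 complex and lectins (median -0.043), 14 of other ligases and conjugating enzymes (median 0.0021) and 11 of extraction by VCP and deglycosylation (median -0.019). Of these, 1, 1 and 2 (12.5%, 7.14% and 18.2%) had a lower value at an unadjusted p under 0.05, against the same 11.1%. The lowest p in each group belonged to the lectin gene Erlec1 (-0.17, edgeR adjusted p = 0.131), the conjugating enzyme gene Ube2j2 (-0.15, adjusted p = 0.0952) and the rhomboid protease gene Rhbdd1 (-0.15, adjusted p = 0.0861). Vcp stood at 765 ± 12 and 743 ± 11 CPM (-0.042, 95% interval -0.13 to 0.041). Derl3, the third derlin, had no count in any library, and Svip, an inhibitor of the route, had 33 counts over all 6 and was not tested.

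**Figure D5:**
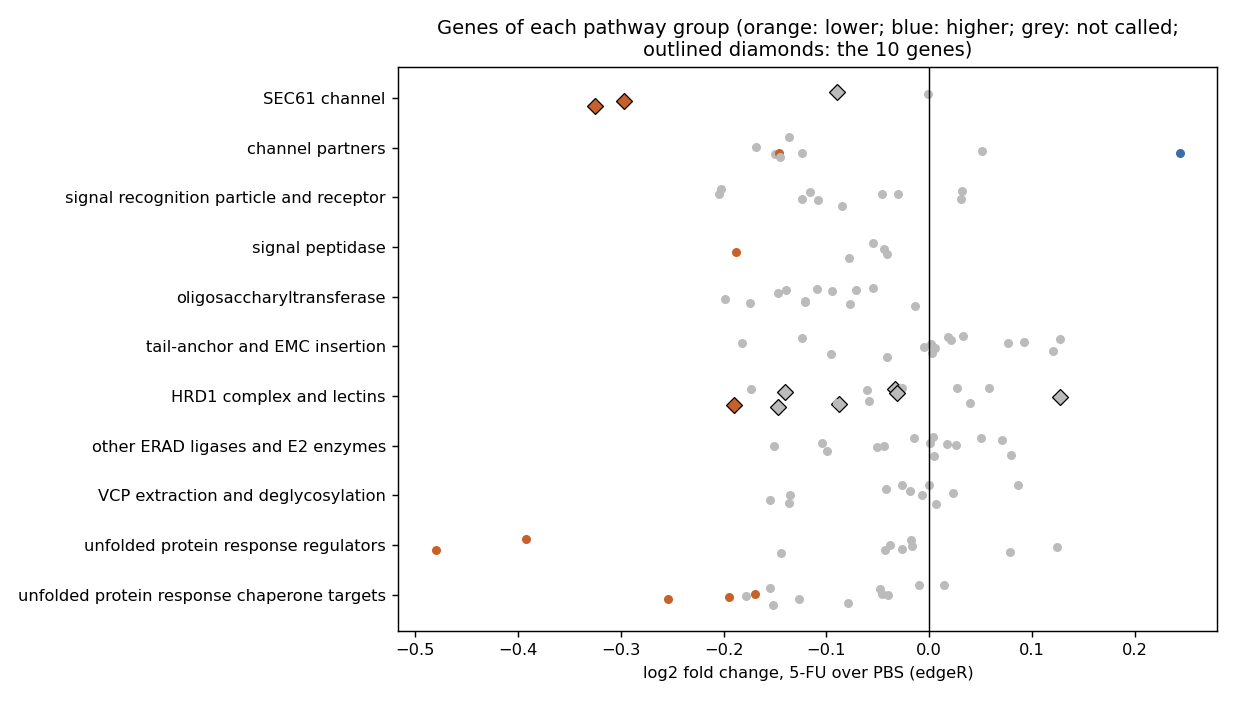
Log2 fold change of 5-FU over PBS (horizontal axis) for each tested gene of the 11 pathway groups, with the 10 genes as outlined diamonds, called genes in orange (lower) or blue (higher) and the rest in grey; vertical scatter within a group carries no value. Points of the oligosaccharyltransferase all lie left of 0, and those of ER-associated degradation spread to both sides.

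Of 10 regulators of the unfolded protein response 2 fell, both on the ATF4 side, and none rose, by edgeR, DESeq2 and limma-voom. These 2 are 20% of the 10, where edgeR called 3.26% of all tested genes lower. Xbp1, which stood at 195.5 ± 3.3 and 190.4 ± 7.9 CPM (log2 fold change -0.038), Atf6 (-0.026), the sensor gene Ern1 (0.079), Eif2ak3, which encodes PERK (0.12), and Ddit3 (-0.14) had edgeR adjusted p-values of 0.262 to 0.834. The counts are per gene and give no measure of Xbp1 splicing or of ATF4 protein. Atf4 fell from 489 ± 12 to 373 ± 10 CPM (-0.39, adjusted p = 5.35e-04), and Ppp1r15a, which encodes the phosphatase subunit that ends the PERK signal, from 62.3 ± 3.1 to 44.6 ± 0.71 CPM (-0.48, adjusted p = 6.54e-04). Both were called in 6 of 6 refits without 1 library. Among 13 chaperone targets of this response 3 fell by edgeR and limma-voom: Sdf2l1 (-0.25), Hspa5 (-0.19) and Pdia6 (-0.17). These 3 are 23.1% of the 13, against the same 3.26% by edgeR. DESeq2 called Hspa5 and Pdia6 but not Sdf2l1. Hspa5 was called in 5 of 6 refits, all but that without PBS replicate 2, Pdia6 in 1 and Sdf2l1 in 0, with adjusted p-values for Sdf2l1 between 0.0615 and 0.0984. Of the 13 targets, 12 had negative values (median log2 fold change -0.13). By edgeR, 6 were lower at an unadjusted p under 0.05, as were 11.1% of all tested genes. Dnajb9, a co-chaperone induced through XBP1, was the 1 target with a positive value, at 25.8 ± 1.2 and 26.0 ± 0.90 CPM.

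The genes most like each called gene over the 6 libraries were searched among 8955 tested genes with a mean of at least 10 CPM, by the root mean square difference of mean-centred log2 CPM. The gene nearest to Herpud1 was Hspa5, the main ER chaperone, at 0.013, followed by Eif4e, which encodes the cap-binding translation factor (0.017), and Crk, an adaptor gene (0.018). Hspa5 measured 818.0, 828.5 and 838.5 CPM in PBS and 716.3, 735.3 and 719.4 CPM in 5-FU, and had the highest 5-FU value in replicate 2, as did Herpud1. Nearest to Sec61b were Tbrg4 (0.026), the splicing factor gene Srsf2 (0.038) and Phgdh, of serine synthesis (0.044). Near to Sec61g were Tm4sf1 (0.034) and Gzme (0.041). This is a ranking of profiles over 6 libraries that share the group difference.

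The libraries held about 19583300 to 23016700 estimated counts, and the 10 genes had between 705 and 6689 counts per library, which by itself gives a Poisson counting error of 1.22% to 3.77% of a count. All 6 myoblast markers (Myod1, Myf5, Des, Cdh15, Itga7 and Pax7) were detected, summing to 5040 to 5190 CPM in PBS and 5480 to 6130 CPM in 5-FU, and Cdh15 among them rose (log2 fold change 0.21, edgeR adjusted p = 0.0293). The differentiated markers were detected as well. Markers of adipocytes summed to at most 0.327 CPM, of endothelium to 1.26 and of leukocytes to 5.54, with Lep, Epcam and Krt5 at 0 in all libraries. Epithelial markers summed to 15.3 to 20.6 CPM, mostly Krt14. None of the 10 genes, and none of the 109 other pathway genes, is among the 186 genes of the authors' deposited table of changed genes, in which the smallest absolute log2 ratio is 0.585.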

How the data were processed

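Messenger RNA of 6 libraries was sequenced, and the series gives 1 table of 21899 genes. Per the file headers, the deposited values are an estimated count and a TPM per gene and library. The estimated counts are not normalized, and 7.31% to 8.04% of a library's values are not whole (tolerance 0.005). The TPM values were scaled by the authors for length and library total. The authors' deposited comparison table gives a log2 ratio of mean TPM and p-values whose test is not stated. Per the submitters' processing notes StringTie 1.3.1 was used, for a step they do not name. The aligner, genome build and annotation were not given in the sources used here. Total RNA was extracted with Trizol and made into libraries with a NEBNext Ultra kit, per the labels' protocols, which describe no step that marks the strand.

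Counts were rounded and fitted in R 4.3.3 with edgeR 4.0.16: filterByExpr (at least 10 counts in 3 libraries and 15 in total), TMM factors of 0.995 to 1.01, a two-sided quasi-likelihood F test of 5-FU against PBS without covariates, and Benjamini-Hochberg adjustment over 12135 genes, called under 0.05. The SE is the log2 fold change over the square root of F, and 95% intervals use the fit's degrees of freedom. Alternatives were DESeq2 1.42.0, limma 3.58.1 (voom, and log2 TPM with pseudocounts of 1 or 0.1), other factors and filters, offsets for length and GC content (mgcv, 99.9% of tested genes matched), the replicate number as a block, and each library left out. The fits were tested on simulated data. Promoter sequences are from RefSeq, build GRCm38.p6.

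The 10 genes and the lists were chosen with earlier results of these data known. Named genes were all 10, up to 4 called genes of each list by size of change or else its gene of lowest p, 7 regulators and targets, and the 3 nearest profiles of each called gene, of which 1 is not reported here; Sec61a2, Vcp, Dnajb9, Derl3, Svip, Ssr1 and Stt3a were added after their values were seen.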

Additional observations from a re-analysis of the deposited data

How the results depend on the processing

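The direction of all 10 genes was the same in all 18 alternatives. Of 180 values of single genes, 156 kept their side of the threshold and 24 lost a call, all of Sec61b, Sec61g and Herpud1; no gene gained one. The 3 calls among the 10 genes and the 8 among pathway genes became 0 and 2 at an adjusted p under 0.01, where 5 of the 10 were lower at an unadjusted p under 0.05. They became 1 and 4 with limma on log2(TPM + 1), 1 and 4 with log2(TPM + 0.1), and 0 and 2 with log2(TPM + 1) unfiltered, where 3 of the 10 had an unadjusted p under 0.05. The cause was not tested. Without 1 library there were 0 to 2 calls among the 10 genes and 2 to 8 among pathway genes. Over all genes, the 866 calls (54.3% higher) became 239 at an adjusted p under 0.01, 528 (64.8% higher), 513 (65.1% higher) and 156 with the same 3 limma fits, and 249 to 656 without 1 library. Without PBS replicate 2 they numbered 249. Sec61g was also lost with library size alone (adjusted p = 0.0509).

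Replicate numbers were shared between the groups, but deviations of same-numbered libraries correlated at -0.00163, 0.0868 and 0.132, so that they were not taken as pairs. PBS replicates 2 and 3 correlated best with the 5-FU library of the same number, but PBS replicate 1 with 5-FU replicate 2 (0.0192). With the replicate block, 1199 genes were called, against 866 without it, with 3 of the 10 genes and 9 pathway genes. The edgeR adjusted p was then 0.00785 for Sec61b, 0.0137 for Sec61g and 0.0262 for Herpud1. Whether same-numbered libraries shared a batch was not tested. The 95% intervals of the 10 genes reached 0.092 to 0.17 (log2) to each side. Changes smaller than a gene's own interval could not be called, and larger ones could also go uncalled. The unadjusted intervals of Selenos, Edem1 and Sel1l excluded 0, but these genes were not called.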
